A study of Mus musculus with 6 samples.

Results

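This section follows 54 genes of the Wnt pathway, from the ligands and their receptors at the cell surface through the complex that destroys β-catenin to its partners in the nucleus. They were taken by gene symbol from a table of 24956 genes, and all 54 were found there. The libraries came from intestinal organoids of Apc Min mice, described in the labels as primary cells grown in organoid medium, with 3 control libraries and 3 from cultures given DM-aKG, the membrane-permeant dimethyl ester of α-ketoglutarate. The Min allele, a nonsense mutation of Apc, is common to both groups, so every comparison is within that background and none is with normal epithelium. The dose and duration of DM-aKG, the vehicle of the controls, the state of the second Apc allele, whether R-spondin or Wnt protein was in the medium, and the age of the mice are not stated by the labels. Replicates are called biological, but nothing ties them to separate mice. The p-values therefore set group differences against the spread between these cultures and do not extend to mice. Expression is given in RPKM, which divides reads by transcript length and sequencing depth, a unit that allows levels to be compared between genes.

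Wnt proteins are lipid-modified by the acyltransferase Porcupine, carried to the cell surface by Wntless, and bound there by a Frizzled receptor with the co-receptor LRP5 or LRP6. Without a ligand, a complex of APC, AXIN, the kinases GSK3 and CK1α and the ubiquitin ligase subunit β-TrCP marks β-catenin for degradation; with a ligand, Dishevelled takes AXIN to the receptor, β-catenin accumulates and TCF factors recruit it to their target genes. In the intestinal crypt this signal maintains stem cells and proliferation, and loss of APC leaves it on.

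Depth, estimated from the read steps of short RNA genes, was alike in all libraries, and 1 RPKM stands for 32.6 to 34.3 reads per kilobase of transcript and 0.1 RPKM for 3.26 to 3.43. All 9 epithelial markers examined were present, with summed levels of 2918 to 2966 RPKM in control and 3732 to 4638 in DM-aKG; 5 of them rose, led by Krt8, Krt18 and Krt19, and 3 fell (Epcam, Cdx1 and Cdx2). Of 12 markers of fibroblasts and muscle, 11 never exceeded 0.1 RPKM, and Col3a1, Dcn and Lum were listed at 0 in every library. Their sum was 0.15 to 0.22 RPKM in control and 0.32 to 0.8 in DM-aKG, most of it Pdgfrb. The immune markers summed to 1.83 to 2.01 and 2.3 to 3.57 RPKM, with Cd4 and Cd8a at 0 throughout and most of the sum from Cd68 and Itgam, and the endothelial and glial markers summed to 0.59 to 0.75 and 1.3 to 1.43 RPKM, with Cdh5 and Kdr at 0. DM-aKG replicate 1 stood nearer to the controls than its companions for 12 of the 17 members that fell and for 2 of the 6 that rose, and it also held more RNA of Paneth cell genes, whose 9 markers summed to 1697 RPKM there against 749 and 722 in replicates 2 and 3, and 2235 to 2922 in control.

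Wnt3, the only ligand gene tested, was lower in DM-aKG, as were Porcn, Wls and 3 of the 5 tested co-receptors and other receptors. Among the 4 tested Frizzled genes 1 was higher, 1 was lower and 2 did not pass. Ctnnb1 was higher. Calls in the cytoplasm were split, with 1 higher and 1 lower in Dishevelled. The destruction complex with the tankyrases had 2 higher and 2 lower. Of the 54 members, 35 had a mean of at least 1 RPKM over the 6 libraries and were tested (limma on log2(RPKM + 0.5), Benjamini-Hochberg over all 10852 tested genes, threshold 0.05). By that test 17 members, or 48.6%, fell, where the background of all tested genes called lower was 24.7%. Another 6, or 17.1%, rose, against 30.9% of all tested genes, and 12 did not pass. The median difference was -0.16 on the log2 scale over the 35 members and 0.02 over all tested genes. Either call was made for 23 members (65.7%, against 55.6% of all tested genes). On the log2(RPKM + 0.5) scale, 5 of the lower members changed by 1.5-fold or more (all tested genes: 4.91%), and Bcl9l, the tested member with the largest rise, stayed below that (all tested genes: 7.04%). The ratios of mean RPKM for Wnt3 (0.616) and Fzd7 (0.660) also pass 1.5-fold, though their differences on the log2 scale do not. Groups did not overlap in 25 of the 35 tested members, against 64.2% of all tested genes. Another 19 members lay below 1 RPKM, of which Wnt3a and Pygo1 were at 0 throughout. Rescaling moved the balance of calls for the members and for all tested genes. With an equal sum per library 9 members were higher and 14 lower (25.7% and 40%, against 35.1% and 20.8% of all tested genes). With quantile normalization 3 were higher and 17 lower (8.57% and 48.6%, against 26.4% and 29.4%). In these bulk libraries, fewer cells that express a gene and less of its RNA per cell cannot be told apart.

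**Figure D1:**
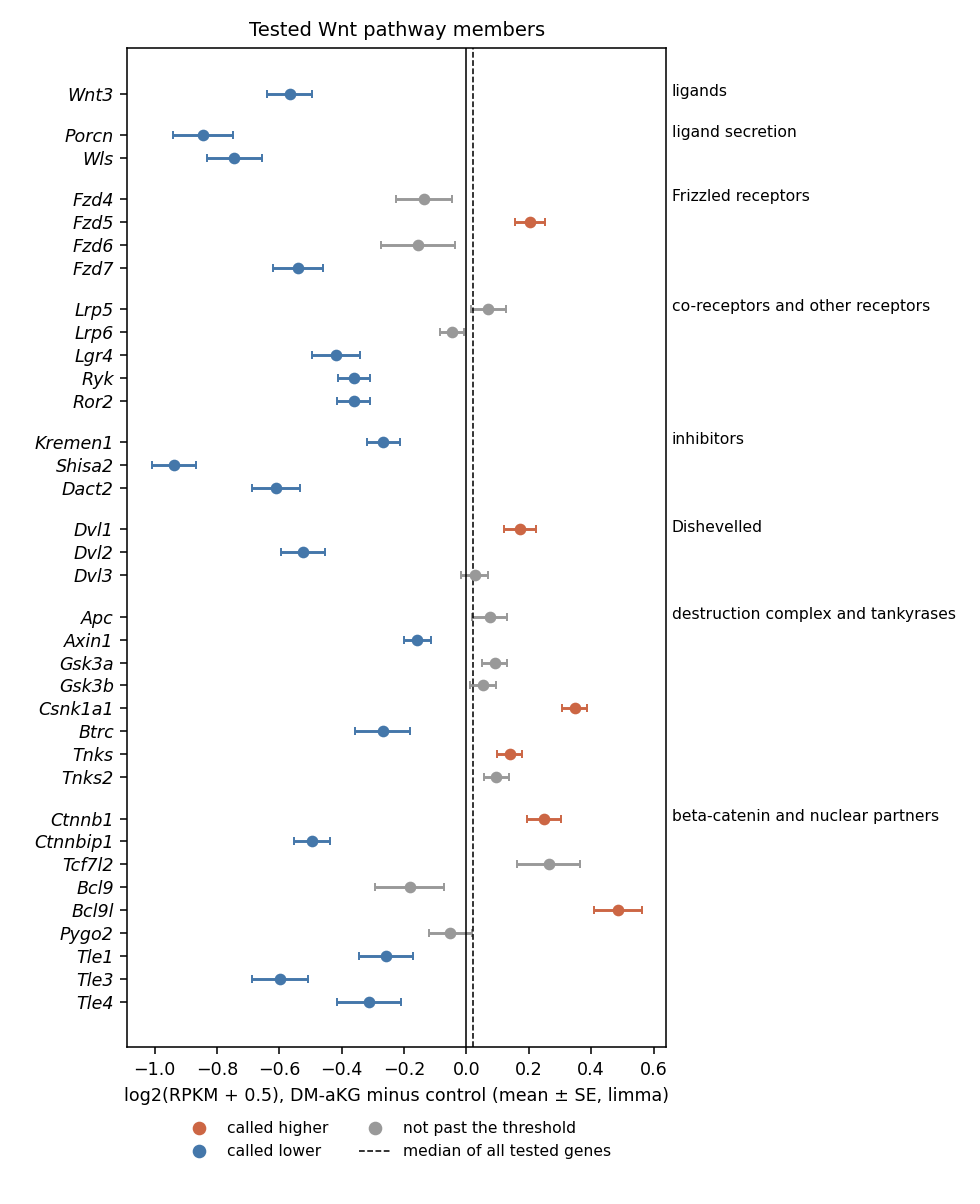
Difference between DM-aKG and control for each of the 35 tested members, on the log2(RPKM + 0.5) scale (x axis, mean ± SE from limma), grouped by role in the pathway (y axis); colour gives the call and the dashed line the median of all tested genes. Members of ligand secretion and the inhibitors lie to the left, from Shisa2 at -0.94 upward, and the members that rose extend to Bcl9l at 0.49.

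The promoters of 3 of the genes of ligand supply and reception that fell, Wnt3, Wls and Fzd7, and of the receptor gene that rose, Fzd5, are shown to let them be read side by side. Each window holds 300 bases and ends 50 bases after the annotated start, in the direction of transcription, on RefSeq's GRCm38.p6: Wnt3 at chr11:103773925-103774224 (plus strand), Wls at chr3:159839400-159839699 (plus), Fzd7 at chr1:59481897-59482196 (plus) and Fzd5 at chr1:64737701-64738000 (minus). Capitals mark a core word of TCF factors, CTTTGNN with each N being A or T, searched on both strands.
Wnt3: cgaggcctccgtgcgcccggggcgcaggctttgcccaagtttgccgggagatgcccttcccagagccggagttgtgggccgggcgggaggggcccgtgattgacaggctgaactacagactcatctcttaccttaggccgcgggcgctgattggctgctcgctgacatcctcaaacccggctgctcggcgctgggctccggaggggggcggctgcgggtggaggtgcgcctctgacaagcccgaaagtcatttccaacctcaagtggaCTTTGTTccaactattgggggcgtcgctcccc
Wls: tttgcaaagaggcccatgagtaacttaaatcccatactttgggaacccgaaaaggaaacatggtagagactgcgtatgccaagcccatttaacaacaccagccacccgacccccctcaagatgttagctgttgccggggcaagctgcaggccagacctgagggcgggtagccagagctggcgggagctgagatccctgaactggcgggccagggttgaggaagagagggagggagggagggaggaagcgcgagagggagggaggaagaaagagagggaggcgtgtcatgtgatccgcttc
Fzd7: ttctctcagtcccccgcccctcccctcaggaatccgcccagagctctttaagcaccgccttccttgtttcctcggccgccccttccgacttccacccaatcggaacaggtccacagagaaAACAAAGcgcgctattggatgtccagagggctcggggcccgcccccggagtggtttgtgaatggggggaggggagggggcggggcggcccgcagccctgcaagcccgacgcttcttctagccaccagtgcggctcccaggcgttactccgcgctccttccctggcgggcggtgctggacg
Fzd5: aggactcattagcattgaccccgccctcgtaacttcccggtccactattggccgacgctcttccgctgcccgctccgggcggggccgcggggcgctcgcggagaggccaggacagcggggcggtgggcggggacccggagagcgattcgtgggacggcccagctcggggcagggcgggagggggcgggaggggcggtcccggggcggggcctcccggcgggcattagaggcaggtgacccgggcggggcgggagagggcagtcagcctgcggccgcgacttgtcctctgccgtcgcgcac
Wnt3 held CTTTGTT from base 19, counting the start as base 1, and Fzd7 held it on the minus strand (printed as AACAAAG) from 130 bases before the start. No such word was in the Wls or Fzd5 windows. The windows of Lgr4, Ryk and Ror2, receptor genes that also fell, held none either and are not printed. Of all 32851 promoter entries, 16.9% held a word of this kind, against 5 of the 44 entries for 37 members (11.4%), the others being Gsk3a, Wnt11 and an internal start of Tcf7l2. A match is a description of the letters and not of binding, and which start these organoids used is not known from the values. The member entries were rich in CpG, with a median of 29 per 300 bases against 7 over all entries. Their median GC content was 68.7% against 52.7%, so the shares with a word come from windows of unlike composition.

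Wnt3, the ligand that Paneth cells are known to supply to crypt stem cells, was the main Wnt transcript of these organoids and fell with DM-aKG. It stood at 2.65, 2.89 and 2.80 RPKM in control replicates 1 to 3 and at 1.79, 1.66 and 1.69 RPKM in the DM-aKG replicates. All 3 DM-aKG libraries lay below all 3 controls. The mean went from 2.78 ± 0.121 to 1.71 ± 0.0681 RPKM (SD, n = 3 per group, here and below), a log2 difference of -0.57 ± 0.07 (SE; limma, adjusted p = 0.000448). Of 8 Paneth markers tested, 6 fell and Pla2g2a rose, and their part in the level of Wnt3 was not tested. In DM-aKG replicate 1, which held more RNA of Paneth markers than replicates 2 and 3, Wnt3 was at 1.79 RPKM, and without that library its log2 difference was -0.59.

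The remaining 7 ligand genes among the members were all near the limit of detection, and 4 of them, Wnt4, Wnt6, Wnt7b and Wnt9a, lay above all controls in all DM-aKG libraries. Over all genes under 1 RPKM and not at 0 throughout, that share was 12.7%. Wnt6 was at 0.04, 0.03 and 0.01 RPKM in control and at 0.14, 0.24 and 0.21 in DM-aKG. Wnt9a was at 0.05, 0.09 and 0.06 RPKM in control and at 0.11, 0.12 and 0.20 in DM-aKG. Wnt4 was at 0.02, 0.06 and 0.03 RPKM in control and at 0.16, 0.09 and 0.10 in DM-aKG. All of these values were far below the lowest Wnt3 value, 1.66 RPKM, and they rest on a few reads per kilobase. Wnt7b was listed at 0 in all controls and at 0.05, 0.02 and 0.01 RPKM in DM-aKG, and an antisense gene overlaps its exons, whose reads cannot be told apart from those of Wnt7b because the strand of the libraries is not given. Wnt5a and Wnt11, ligands best known for β-catenin-independent signalling, were at most 0.02 RPKM in any library. Summed without Wnt3, the 7 genes came to 0.12 to 0.21 RPKM in control and 0.47 to 0.52 in DM-aKG. Wnt3 made up 94.8% ± 1.40 of the RPKM of these 8 ligands in control and 77.8% ± 1.37 in DM-aKG, and over all 19 Wnt genes of the file 80.0% ± 2.29 and 63.2% ± 1.83. The sum over all 19 was 3.28 to 3.73 RPKM in control and 2.57 to 2.93 in DM-aKG. Of the 11 Wnt genes outside the members, Wnt7a lay above and Wnt9b below all controls in all DM-aKG libraries. Wnt9b was at 0.20, 0.18 and 0.20 RPKM in control and at 0.07, 0.05 and 0.07 in DM-aKG.

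The genes for ligand modification and export fell together. Porcn, which encodes the acyltransferase of Wnt proteins and lies on chromosome X (GRCm38, 8193848 to 8206525, minus strand), was at 3.03, 2.83 and 3.11 RPKM in control and at 1.60, 1.22 and 1.53 in DM-aKG. The mean dropped from 2.99 ± 0.144 to 1.45 ± 0.202 RPKM, with a log2 difference of -0.84 ± 0.10 (limma, adjusted p = 0.000285). Wls, which encodes the carrier Wntless, was at 8.89, 9.32 and 8.50 RPKM in control and at 5.95, 4.82 and 4.65 in DM-aKG, with replicate 1 the highest of the treated libraries. Its mean dropped from 8.90 ± 0.410 to 5.14 ± 0.707 RPKM, with a log2 difference of -0.74 ± 0.09 (limma, adjusted p = 0.000368). For both genes the groups were well apart, and neither call was lost under any setting run or library left out.

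**Figure D2:**
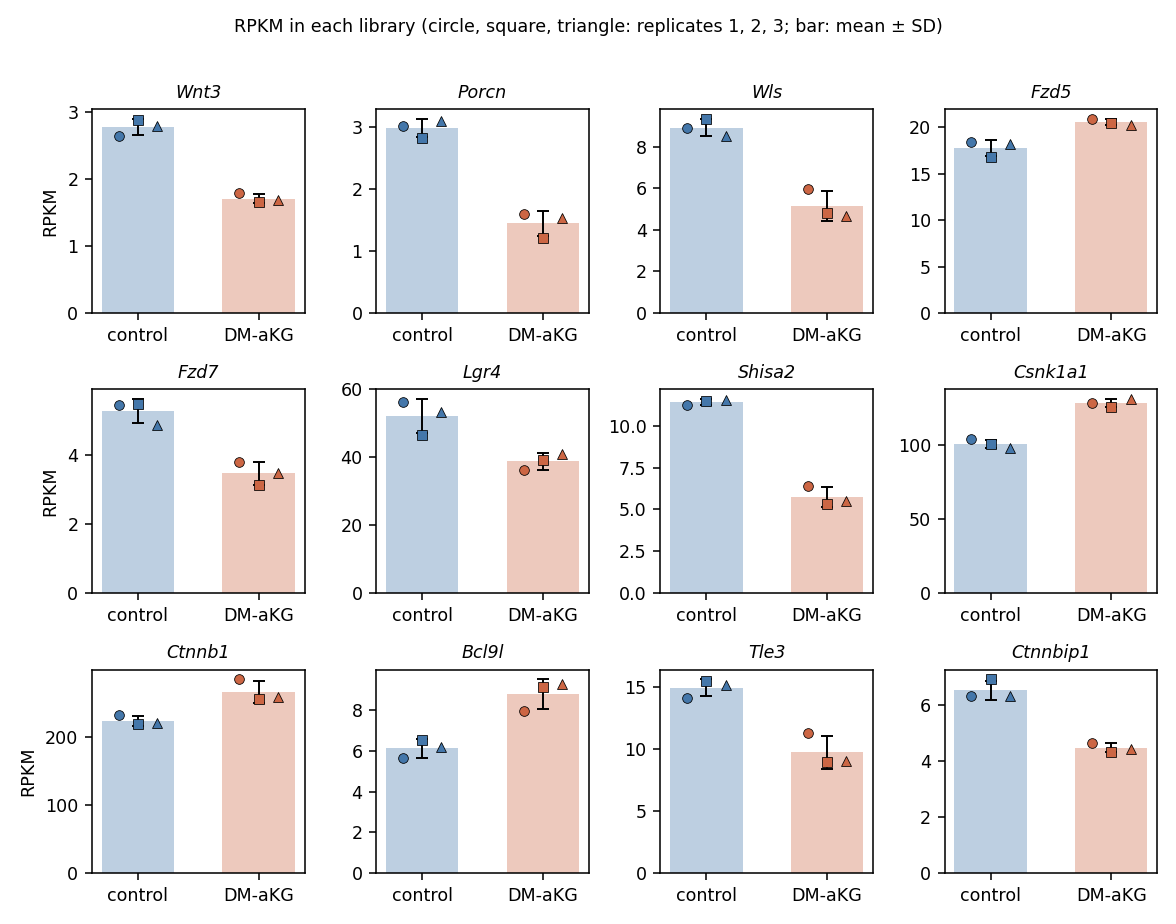
RPKM of 12 members in each library (y axes, linear and starting at 0), with bars for the group mean, whiskers for the SD and symbols for replicates 1, 2 and 3. In each panel all 3 DM-aKG libraries lie on the same side of all 3 controls, above them for Fzd5, Csnk1a1, Ctnnb1 and Bcl9l and below them for the other 8.

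Of the Frizzled genes, which encode the membrane receptors that bind Wnt, Fzd5 rose while Fzd7 fell. Fzd5 was at 18.39, 16.76 and 18.16 RPKM in control and at 20.87, 20.43 and 20.25 in DM-aKG, a rise of 0.20 ± 0.05 on the log2 scale (limma, adjusted p = 0.00809). With quantile normalization the rise of Fzd5 was 0.13 and no longer passed (limma, adjusted p = 0.0527; range over all settings 0.0019 to 0.0527). Fzd7, a receptor required in intestinal stem cells, was at 5.45, 5.49 and 4.87 RPKM in control and at 3.81, 3.14 and 3.48 in DM-aKG. It fell from 5.27 ± 0.347 to 3.48 ± 0.335 RPKM, with a log2 difference of -0.54 ± 0.08 (limma, adjusted p = 0.00103). The other tested receptors did not pass. Fzd4 was at 4.77 ± 0.352 and 4.31 ± 0.499 RPKM (limma, adjusted p = 0.228). Fzd6 was at 3.65 ± 0.0794 RPKM in control and at 4.02, 2.74 and 3.03 RPKM in DM-aKG (limma, adjusted p = 0.290), with replicate 1 above and replicates 2 and 3 below the controls, and without DM-aKG replicate 1 Fzd6 fell, with a log2 difference of -0.29 (limma, adjusted p = 0.00585; range over all settings 0.00418 to 0.714).

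Fzd2 showed the largest drop of all members in proportion to its control level. It was at 1.52, 1.98 and 1.73 RPKM in control and at 0.37, 0.06 and 0.13 in DM-aKG, which left 0.107 of the control mean. Its mean over all libraries was just under the filter, and in the fit without a filter the gene fell, with a log2 difference of -1.73 ± 0.18 (limma, adjusted p = 0.000986). The size depends on the pseudocount, with a difference of -2.83 at 0.1 and -1.21 at 1 for Fzd2. Fzd3, at 0.15, 0.16 and 0.10 RPKM in control and 0.04, 0.04 and 0.06 in DM-aKG, was also lower in the fit without a filter (log2 difference -0.22; limma, adjusted p = 0.00978). Fzd1, Fzd8 and Fzd9 were at 0.36 to 0.98 RPKM in all libraries and did not pass in that fit. The 9 receptors summed to 35.5 ± 0.257 RPKM in control and 33.6 ± 0.936 in DM-aKG, while Fzd5 went from 50.1% ± 2.27 to 61.1% ± 1.12 of that sum, Fzd7 from 14.9% ± 0.943 to 10.3% ± 0.715 and Fzd2 from 4.92% ± 0.679 to 0.547% ± 0.464. In order of level, Fzd5 stood well above Fzd7, Fzd4 and Fzd6 in every library. In control Fzd7 and Fzd4 overlapped in range (4.87 to 5.49 and 4.56 to 5.18 RPKM), and in DM-aKG Fzd7, Fzd6 and Fzd4 did (3.14 to 3.81, 2.74 to 4.02 and 3.74 to 4.68 RPKM).

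**Figure D3:**
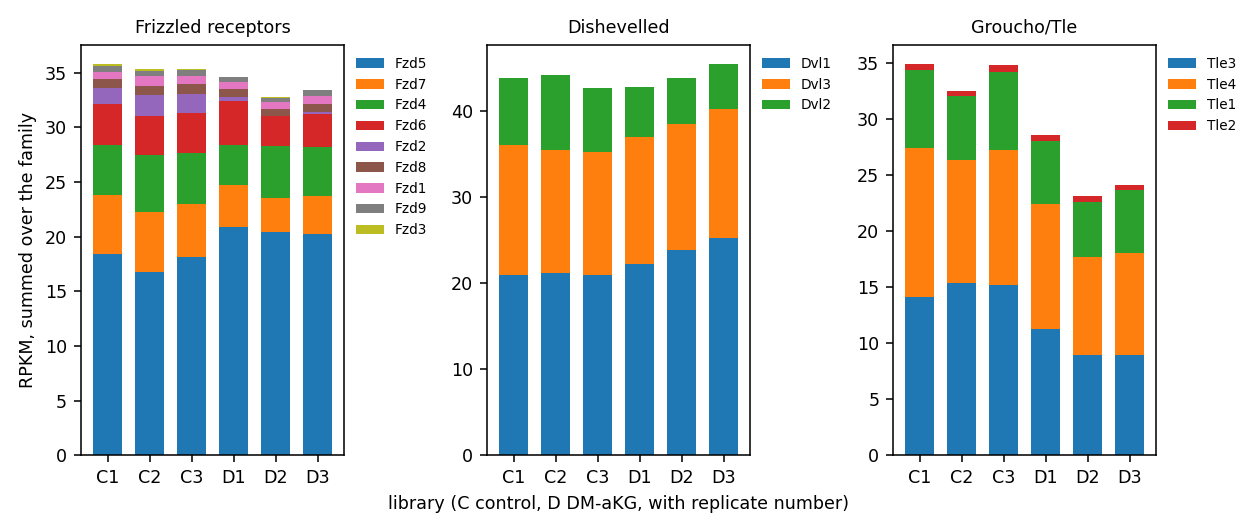
RPKM of the Frizzled, Dishevelled and Groucho/Tle genes stacked by library (x axis, C1 to C3 control and D1 to D3 DM-aKG replicates; y axes start at 0). The share of Fzd5 is larger in every DM-aKG library (60.3% to 62.4%) than in any control (47.5% to 51.4%). That of Dvl2 is smaller, and the total of Tle1 to Tle4 is lower.

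Among the co-receptors and other receptors, Lrp5 and Lrp6 did not pass the test and 3 others fell. Lrp5 was at 18.64, 20.50 and 18.24 RPKM in control and at 19.44, 19.76 and 21.10 in DM-aKG, with a log2 difference of 0.07 ± 0.06 (adjusted p = 0.322 by limma). Lrp6 was at 12.86, 12.84 and 12.68 RPKM in control and at 12.54, 12.28 and 12.32 in DM-aKG, without overlap but with a log2 difference of only -0.05 ± 0.04 (limma, adjusted p = 0.351). Lgr4, a receptor of the R-spondins that enhance Wnt signalling, was at 56.45, 46.69 and 53.34 RPKM in control and at 36.16, 39.31 and 41.05 in DM-aKG. Its log2 difference was -0.42 ± 0.08 (limma, adjusted p = 0.00276), and its level was the highest of the receptors among the members. Ryk, a Wnt-binding receptor related to tyrosine kinases, was at 20.70, 20.20 and 21.15 RPKM in control and at 17.01, 15.66 and 15.36 in DM-aKG. All treated libraries were lower, by a log2 difference of -0.36 ± 0.05 (limma, adjusted p = 0.000752). Ror2, a receptor for Wnt5a, was at 4.73, 5.01 and 4.93 RPKM in control and at 3.70, 3.77 and 3.61 in DM-aKG, and its log2 difference was -0.36 ± 0.05 as well (limma, adjusted p = 0.00105). Its relative Ror1 was at most 0.02 RPKM in any library.

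The 3 tested inhibitors among the members all fell, where 24.7% of all tested genes were called lower. Tpbg, the only tested gene of the other secreted or membrane inhibitors, rose. Shisa2, which encodes a protein that holds Frizzled in the endoplasmic reticulum and lies on chromosome 14 (GRCm38, 59625308 to 59631660, plus strand), was at 11.23, 11.50 and 11.53 RPKM in control and at 6.41, 5.31 and 5.49 in DM-aKG. Its log2 difference of -0.94 ± 0.07 was the largest fall among the 35 tested members (limma, adjusted p = 4.77e-05). Dact2, a binding partner of Dishevelled, was at 8.98, 10.53 and 8.95 RPKM in control and at 5.88, 5.73 and 6.47 in DM-aKG, with a log2 difference of -0.61 ± 0.08 (limma, adjusted p = 0.000454). Kremen1, a receptor for the Dickkopf inhibitors, fell from 6.16 ± 0.240 to 5.04 ± 0.132 RPKM, with no overlap (limma, adjusted p = 0.00384). The 3 inhibitors under 1 RPKM went both ways. Sfrp5, a secreted protein that binds Wnt, was at 0.62, 0.74 and 0.80 RPKM in control and at 0.34, 0.22 and 0.18 in DM-aKG. Apcdd1, a membrane inhibitor, was at 0.61, 0.99 and 0.70 RPKM in control and at 0.44, 0.36 and 0.44 in DM-aKG. Kremen2 went the other way, from 0.10, 0.07 and 0.14 RPKM in control to 0.30, 0.35 and 0.46 in DM-aKG; an antisense gene overlaps its exons, and here too reads of the pair cannot be told apart.

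Of the 17 members under 1 RPKM that were not at 0 throughout, 5 were above and 5 below the controls in all DM-aKG libraries, against 12.7% and 9.17% of all genes under 1 RPKM and not at 0 throughout. In the fit without a filter 3 of the 17 were called higher by limma (Wnt4, Wnt6 and Kremen2; background 9.24% of the genes under 1 RPKM) and 4 lower (Fzd2, Fzd3, Sfrp5 and Apcdd1; background 6.66%). The values for Tcf7l1, at most 0.04 RPKM, and Tle2, at 0.45 to 0.62 RPKM, overlapped between groups.

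**Figure D4:**
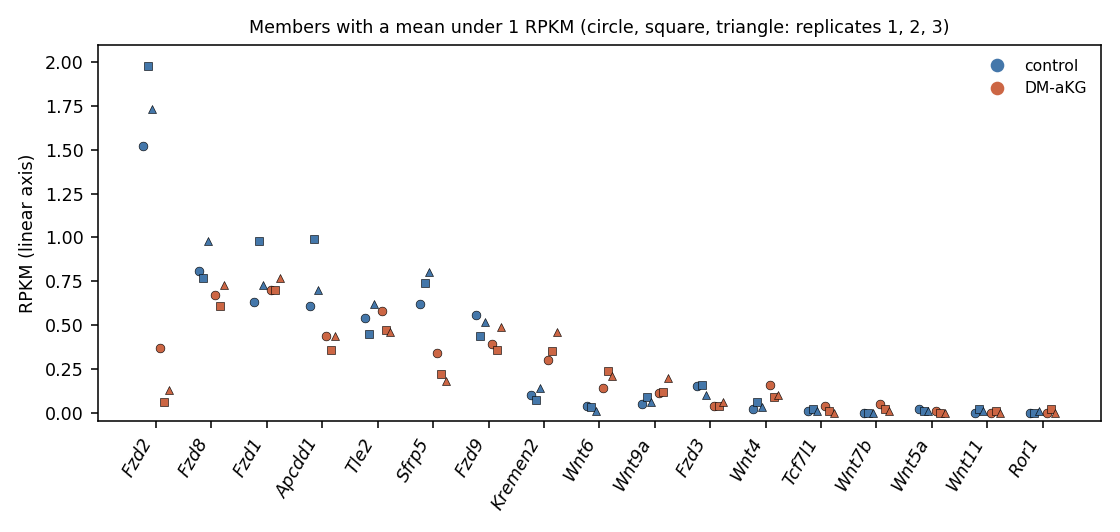
RPKM of the 17 members with a mean under 1 RPKM that were detected (y axis, linear), ordered by mean, with a point per library and symbols for replicates 1, 2 and 3. Fzd2 separates most, at 1.52 to 1.98 RPKM in control and 0.06 to 0.37 in DM-aKG, and Kremen2 and Wnt6 are higher in DM-aKG at levels of up to 0.46 and 0.24 RPKM.

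Dishevelled, which relays the signal from Frizzled, changed in make-up, while the totals of the groups overlapped. Dvl2 was at 7.80, 8.70 and 7.45 RPKM in control and at 5.73, 5.27 and 5.18 in DM-aKG. The groups did not overlap, and the log2 difference was -0.52 ± 0.07 (limma, adjusted p = 0.000605). Its exons overlap those of Acadvl on the opposite strand, which rose from 51.3 to 60.4 RPKM, and without the strand reads from the overlap cannot be assigned to either. The opposite-strand genes over exons of Dvl1, Ctnnb1 and Bcl9l (Tas1r3, Ulk4 and Cxcr5) were at most 0.46 RPKM in any library, and an antisense gene over exons of Gsk3a was at 3.69 to 6.02 RPKM. Dvl1 was at 20.99, 21.23 and 20.99 RPKM in control and at 22.29, 23.83 and 25.32 in DM-aKG, a rise of 0.17 ± 0.05 (limma, adjusted p = 0.0241). That call was lost with median centring, quantile normalization and without any of 5 libraries (DM-aKG replicate 1 excepted), with adjusted p for Dvl1 of up to 0.126 by limma. Dvl3 was at 14.5 ± 0.476 and 14.8 ± 0.144 RPKM (limma, adjusted p = 0.619). The sum of the genes Dvl1, Dvl2 and Dvl3 was 43.6 ± 0.832 RPKM in control and 44.0 ± 1.36 in DM-aKG, and Dvl2 made up 18.3% ± 1.19 and 12.3% ± 1.02 of it.

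Within the destruction complex the changes were small and of both signs. Csnk1a1, which encodes CK1α, the kinase that places the priming phosphate on β-catenin, was at 103.66, 100.22 and 97.90 RPKM in control and at 128.29, 125.35 and 130.55 in DM-aKG. It rose, with a log2 difference of 0.35 ± 0.04 (limma, adjusted p = 0.000327), and had the highest level of the listed genes of the complex. Axin1, which encodes an AXIN scaffold, was at 18.41, 18.37 and 18.76 RPKM in control and at 17.28, 16.19 and 16.20 in DM-aKG. Its log2 difference was -0.16 ± 0.04 (limma, adjusted p = 0.0161). The call was lost on leaving out control replicate 3 (limma, adjusted p = 0.0659), DM-aKG replicate 2 (0.0604) or 3 (0.0598), and with an equal sum per library (0.0526; range over all settings 0.000476 to 0.0659). Apc was at 16.39, 16.14 and 15.62 RPKM in control and at 18.27, 16.29 and 16.27 in DM-aKG (log2 difference 0.07 ± 0.06; limma, adjusted p = 0.286); the sum does not separate the Min allele from the normal one. Gsk3b was at 21.27, 20.65 and 20.30 RPKM in control and at 21.26, 21.10 and 22.24 in DM-aKG, with a log2 difference of 0.05 ± 0.04 (limma, adjusted p = 0.314). Gsk3a, the other GSK3 gene, was at 42.2 ± 0.665 and 45.0 ± 1.19 RPKM without overlap but with an adjusted p of 0.0814 by limma. It passed without DM-aKG replicate 1 (limma, adjusted p = 0.0351; range over all settings 0.0284 to 0.4).

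Btrc, which encodes β-TrCP, fell from 1.72 ± 0.167 to 1.34 ± 0.0529 RPKM, while its paralogue Fbxw11, which is not among the 54, rose from 17.3 to 19.4 RPKM. The call of Btrc, at an adjusted p of 0.0334 by limma, did not hold on leaving out control replicate 2 or 3 or DM-aKG replicate 2 or 3, with adjusted p of 0.0740 to 0.111 for Btrc by limma, and was also lost with no filter on low values (0.0517) and without both control replicate 2 and DM-aKG replicate 1 (0.0609). Tnks, a tankyrase that marks AXIN for degradation, was at 10.93, 10.75 and 10.71 RPKM in control and at 11.80, 11.78 and 12.22 in DM-aKG, a rise of 0.14 ± 0.04 on the log2 scale (limma, adjusted p = 0.0227). This call too was lost without control replicate 2 or 3 or DM-aKG replicate 2 or 3, with adjusted p of 0.0521 to 0.0836 for Tnks by limma, and with median centring (0.0885) and quantile normalization (0.113). Tnks2 was at 33.7 ± 0.883 and 36.1 ± 0.918 RPKM, without overlap (limma, adjusted p = 0.0789).

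Ctnnb1, which encodes β-catenin and had the highest level of all members, rose at the RNA level. It was at 231.59, 218.68 and 219.14 RPKM in control and at 283.84, 255.47 and 257.43 in DM-aKG. All treated libraries lay above all controls, with DM-aKG replicate 1 the highest. The mean went from 223 ± 7.32 to 266 ± 15.8 RPKM, a log2 difference of 0.25 ± 0.05 (limma, adjusted p = 0.00580). β-catenin is regulated mainly through the stability of the protein, which RNA values do not measure. Ctnnbip1, which encodes an inhibitor that keeps β-catenin from TCF factors, fell, at 6.33, 6.93 and 6.35 RPKM in control against 4.66, 4.35 and 4.45 in DM-aKG. The log2 difference was -0.50 ± 0.06 (limma, adjusted p = 0.000329).

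Of the TCF factors listed, Tcf7l2 was expressed and Tcf7l1 was not above 0.04 RPKM. Tcf7l2 was at 8.41, 9.15 and 8.82 RPKM in control and at 9.0, 10.94 and 12.25 in DM-aKG. Replicate 1 of DM-aKG lay within the control range and replicates 2 and 3 above it, and the gene did not pass (log2 difference 0.26 ± 0.10; limma, adjusted p = 0.0557). Without DM-aKG replicate 1 Tcf7l2 was higher by 0.38 (limma, adjusted p = 0.00133; range over all settings 0.000691 to 0.163). Bcl9l, a co-activator that links β-catenin to Pygopus, was at 5.64, 6.54 and 6.18 RPKM in control and at 7.96, 9.10 and 9.28 in DM-aKG. Its rise of 0.49 ± 0.08 on the log2 scale was the largest among the tested members (limma, adjusted p = 0.00129). Its paralogue Bcl9 was at 11.1 ± 1.62 and 9.69 ± 1.03 RPKM, with overlap (limma, adjusted p = 0.195). Pygo2, the expressed Pygopus gene, was at 11.8 ± 0.653 and 11.4 ± 0.922 RPKM (limma, adjusted p = 0.544).

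The Groucho/Tle co-repressors, which sit on TCF factors when β-catenin is absent, fell in their 3 tested members. Tle3 was at 14.13, 15.43 and 15.17 RPKM in control and at 11.28, 8.92 and 9.0 in DM-aKG. Its log2 difference was -0.60 ± 0.09 (limma, adjusted p = 0.00105), and replicate 1 of DM-aKG was again the closest to control. Tle4 was at 13.30, 10.94 and 12.05 RPKM in control and at 11.18, 8.75 and 9.07 in DM-aKG, where the value of DM-aKG replicate 1 lay above that of control replicate 2. The log2 difference of Tle4 was -0.31 ± 0.10 (limma, adjusted p = 0.0318). Tle1 went from 6.56 ± 0.710 to 5.39 ± 0.364 RPKM and was called lower (adjusted p = 0.0339 by limma). The calls of Tle1 and Tle4 were lost without control replicate 1 or 3 or DM-aKG replicate 2 or 3, with adjusted p of 0.0537 to 0.120 for Tle1 and 0.0818 to 0.108 for Tle4 by limma, and also with no filter on low values (0.0706 and 0.0680) or an equal sum per library (0.0684 and 0.0534). Summed over the 4 genes, Tle RNA was at 32.6 to 34.9 RPKM in control and 23.1 to 28.6 in DM-aKG, the lower 2 values in replicates 2 and 3.

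Across the rest of the pathway the calls went both ways. Of 112 other Wnt pathway genes in the file, 65 were tested, and 24 rose (36.9%, against 30.9% of all tested genes) while 18 fell (27.7%, against 24.7%), with a median log2 difference of 0.07. With median centring the split was 18 higher and 22 lower (27.7% and 33.8%, against 25.7% and 30.8% of all tested genes). With quantile normalization it was 17 and 24 (26.2% and 36.9%, against 26.4% and 29.4%). With an equal sum per library it was 29 and 14 (44.6% and 21.5%, against 35.1% and 20.8%). The difference between the members and these genes was not tested. Among the tested genes the largest falls were those of Vangl2, Axin2, Lgr5 and Wtip. The planar polarity gene Vangl2 went from 1.58 ± 0.0115 to 0.750 ± 0.171 RPKM and Axin2 from 55.5 ± 0.818 to 34.3 ± 1.58 RPKM. Lgr5 went from 56.4 ± 10.4 to 34.9 ± 3.93 RPKM and Wtip from 2.02 ± 0.237 to 1.15 ± 0.0814 RPKM. The largest rises among the tested genes were those of Med12, a Mediator subunit (from 6.37 ± 0.0964 to 9.54 ± 0.122 RPKM), Cby1, a β-catenin antagonist (from 5.89 ± 0.465 to 8.83 ± 0.631 RPKM), the calcium-dependent kinase gene Camk2d (from 11.3 ± 0.362 to 16.7 ± 0.175 RPKM) and Nfatc1 (from 1.77 ± 0.0681 to 2.69 ± 0.234 RPKM). Tpbg, the only tested gene of the other secreted or membrane inhibitors, rose from 1.34 ± 0.223 to 2.05 ± 0.0902 RPKM (limma, adjusted p = 0.00548). Some genes under the filter, which were not tested, differed more in proportion. Nkd1, an inhibitor, was at 0.65, 1.68 and 0.72 RPKM in control and at 0.33, 0.20 and 0.24 in DM-aKG. Notum, an enzyme that removes the lipid of Wnt proteins, was at 0.30, 0.35 and 0.29 RPKM in control and at 0.48, 1.22 and 1.55 in DM-aKG. Rspo4, an R-spondin, went from 0.313 ± 0.0577 to 1.03 ± 0.194 RPKM and the planar polarity gene Celsr1 from 0.123 ± 0.0231 to 0.587 ± 0.0723 RPKM. In each of these 4 genes, picked after their values were seen, the groups did not overlap. There were 47 other pathway genes under the filter, 6 of them at 0 throughout. Of the 47, 8 lay above and 5 below all controls in all DM-aKG libraries. Over all genes under 1 RPKM and not at 0 throughout, the shares were 12.7% and 9.17%.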

How the data were processed

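The libraries, of total RNA extracted with a Qiagen kit per the labels, were 3 control and 3 DM-aKG samples, and each column was matched to its sample by title. The submitters' processing notes name CASAVA 1.8, HISAT2 2.0.4, Partek and the build mm10; the annotation, the strand and how multi-mapping reads were handled were not stated there. The authors deposited RPKM with 2 decimals, so low levels are coarse, and a change in abundant genes moves the rest a little. Depth was estimated from RefSeq snoRNA and miRNA genes of at most 150 bases; this gave 32.6 to 34.3 × 10⁶ reads per library, and 91.4% to 97.1% of values between 1 and 5 reads were then whole within 0.05 reads. It covers counting error only.

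Genes with a mean of at least 1 RPKM (10852 of 24956) were compared as log2(RPKM + 0.5) with limma 3.58.1 in R 4.3.3 (mean-variance trend, two-sided, no replicate term), which understates changes of low genes. Members, lists and rules were chosen with earlier results of these data known. Every member is named; the members that passed with no overlap, up to 12 in each direction, and 14 fixed genes are given in full, and of other pathway genes the 4 largest rises and falls, while other genes were picked after their values were seen. Positions are from GENCODE M21 (GRCm38, which mm10 names), and promoters from RefSeq (GRCm38.p6), which matched 37 members. One marker gene of the endothelial and glial list is not reported here. The procedure was tested on simulated data. Alternatives covered pseudocount, filter, scaling, variance model, replicate block and omitted libraries. Python 3.11.15 was used for the rest.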

Additional observations from a re-analysis of the deposited data

How the results depend on the processing

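Of the 23 members called, 16 kept direction and call under each of the up to 17 alternatives that could be run for them, among them Wnt3, Porcn, Wls, Fzd7, Lgr4, Shisa2, Csnk1a1, Ctnnb1, Bcl9l and Tle3; the other 7 (Fzd5, Dvl1, Axin1, Btrc, Tnks, Tle1 and Tle4) lost the call under at least 1 but kept direction. Fzd6, Lrp5, Gsk3a, Tnks2 and Tcf7l2, not called, passed under at least 1. Members called higher numbered 6, but 3 with quantile normalization (8.57%, against 26.4% of all tested genes) and 10 with array weights (28.6%, against 38.2%). Leaving out each library in turn gave 4 to 8 members higher and 13 to 18 lower, 17 to 27 and 14 to 18 among the other pathway genes, and 2689 to 3674 and 2059 to 3188 over all genes. All genes numbered 3354 higher and 2679 lower, which median centring turned to 2790 and 3340. Differences that changed sign were small and did not pass in either fit: Dvl3 was at -0.022 with median centring and at -0.037 with quantile normalization, Lrp5 at -0.008 and Gsk3b at -0.027 with quantile normalization, and, over omitted libraries, Fzd4 ranged from -0.194 to 0.005 and Bcl9 from -0.266 to 0.013, both highest without control replicate 2 and DM-aKG replicate 1. Without those 2 libraries 9 members were higher and 17 lower. Counts over all tested genes also moved with the libraries left out, as given above, so these counts are no result about the members alone. With the replicate block 6 members were higher and 16 lower (17.1% and 45.7%, against 29.5% and 23.4% of all tested genes). In that fit Btrc (adjusted p = 0.0715 by limma) and Tnks (0.0501) did not pass while Tcf7l2 (0.0323) did. Same-numbered libraries did not deviate together (r = -0.08, -0.11 and 0.01 across genes), so the numbers were not taken as pairs. Wnt3, Porcn and Btrc were not tested at a filter of 3 RPKM. Below about 0.1 RPKM, or 3.26 to 3.43 reads per kilobase, depth limits what can be read from the ligand values.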
